A study of Mus musculus with 6 samples.

Results

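Naive T cells circulate in a quiescent state and become memory cells after they have met antigen, and several genes are commonly used to tell these states apart. The set described here holds 9 such genes: Tcf7, Lef1, S1pr1, Klf2 and Bach2 as naive-state genes, Cd44 as the memory and activation marker, and Thy1, Cd2 and Cd28 as genes shared by most T cells (pan-T genes). Members were all probe sets whose platform annotation gave exactly 1 gene symbol and that symbol was in the set. This gave 15 of 45037 probe sets, for 8 of the 9 genes: 7 for naive-state genes, 4 for Cd44 and 4 for pan-T genes. No probe set was matched to Tcf7, which was not analysed here. The samples were spleens of adult F1 females with no treatment named, all with FVB/NJ as a parent. The remaining parent was AKR/J for 3 samples, (AKR/J x FVB/NJ)F1, called AKR F1 here, and DBA/2J for the other 3, (DBA/2J x FVB/NJ)F1, called DBA F1. RNA of each spleen went onto an Affymetrix array of its own to compare basal expression of the genotypes.

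As background, T cell receptor genes mark T cells as such, and the pan-T genes are shared by most T cells. The naive-state genes and Cd44 report mainly on state. Lef1 and Tcf7 encode related HMG box transcription factors that act at the end of the Wnt pathway and maintain naive and memory precursor cells. Klf2, a Krüppel-like zinc finger factor, promotes quiescence and drives S1pr1, the receptor for sphingosine 1-phosphate through which lymphocytes leave lymphoid organs. Bach2 is a transcriptional repressor that restrains effector differentiation in T cells and plasma cell differentiation in B cells. Cd44, the hyaluronan receptor, is raised on activated and memory T cells and is also carried by many other leukocytes. Thy1 is a small surface glycoprotein of T cells, Cd2 an adhesion receptor of T and NK cells whose mouse ligand is Cd48, and Cd28 the costimulatory receptor for Cd80 and Cd86. AKR/J and DBA/2J carry different protein alleles of Thy1, a textbook strain polymorphism. S1pr1, Klf2, Bach2, Cd44 and mouse Cd2 are also expressed by B cells, the most numerous lymphocytes of the mouse spleen.

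All values are the deposited log2 values, and all differences are AKR F1 minus DBA F1, so a positive difference is higher in AKR F1. Array medians lay between 5.04 and 5.10. Replicate 3 of DBA F1 stood apart, with a mean of 5.69 over 8 pancreatic acinar genes against 12.35 to 13.01 in the other 5 arrays, so that values without it are given beside the results. Red cell precursor and cell cycle genes were higher in DBA F1: list means were 9.30 to 10.07 and 8.70 to 9.64 there, against 7.59 to 8.27 and 7.53 to 8.12 in AKR F1. B cell markers (mean of 7 genes) stood at 10.64 to 10.81 in AKR F1 and 10.38 to 10.67 in DBA F1. The part of these lists in the results below was not tested. In whole spleen, a difference in the number of T cells cannot be told apart from a difference in RNA per cell.

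Thy1 and Cd2 were higher in AKR F1, as were Cd28 and Lef1 at 1 of their 2 probe sets each and Cd44 at 1 of its 4, whereas Bach2 was lower in AKR F1 at 1 of its 3. The 5 higher differences were 0.37 to 0.66 (1.29-fold to 1.58-fold), and the lower one was -0.51. Of the 15 probe sets, 5 were higher and 1 was lower in AKR F1 at a Benjamini-Hochberg adjusted p under 0.05 in limma, and 9 did not pass. Over all probe sets, 5.14% were higher and 5.26% were lower, or 6.77% and 4.17% with each array centred on its median, where 7 and 1 of the 15 passed. Of the 4 pan-T probe sets 3 were higher, of the 4 Cd44 probe sets 1 was higher, and of the 7 naive-state probe sets 1 was higher and 1 was lower. The median difference was 0.48 for the pan-T probe sets, 0.05 for Cd44 and 0.20 for the naive-state probe sets, against -0.02 over all probe sets. Every AKR F1 array lay above every DBA F1 array at 7 of the 15 probe sets, as for 17.7% of all probe sets, and below at 1, as for 18.3%. With 3 arrays per genotype an exact two-sided permutation test cannot go below p = 0.1, which these 8 reached, and the calls rest on limma's pooled variance. Calls often did not hold with 1 array left out. Without replicates 1, 2 and 3 of AKR F1, 1, 1 and 0 probe sets were higher. Without replicates 1, 2 and 3 of DBA F1, 5, 1 and 1 were higher, the 5 including S1pr1 and not Cd44. Lef1 at 1421299_a_at and Cd28 at 1437025_at kept their calls in 3 of the 6 fits each. Thy1, Cd2 and Bach2 at 1437667_a_at kept theirs in 1, and Cd44 in 0. The share of all probe sets higher in those fits was 1.14%, 1.71% and 1.30%, then 5.08%, 1.35% and 1.44%.

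**Figure D1:**
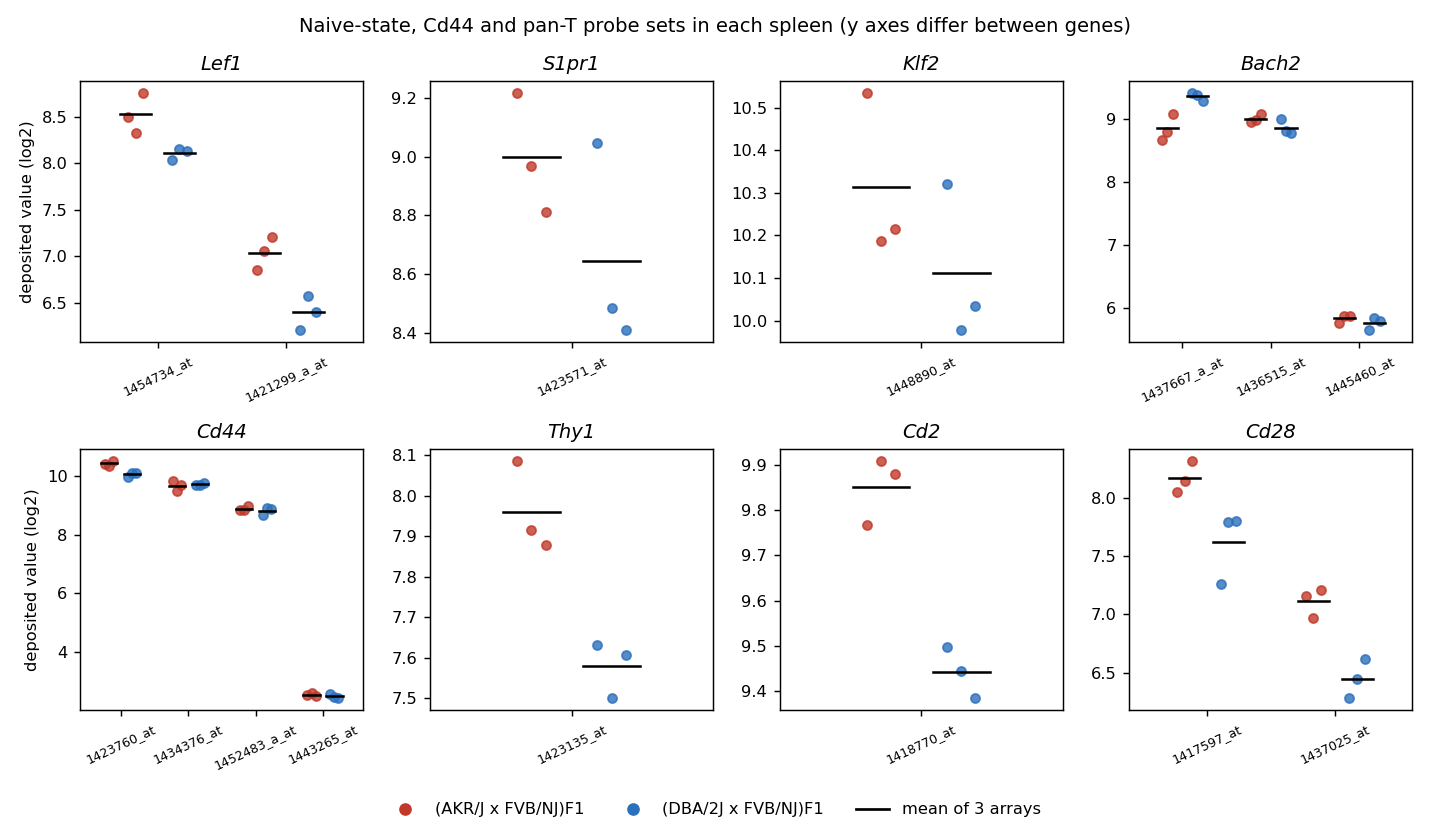
Deposited log2 values of the 15 probe sets in each of the 6 spleens, 1 panel per gene with its own y axis; points are arrays and black lines are means of 3 arrays. AKR F1 arrays all lie above those of DBA F1 for Lef1, Thy1, Cd2, Cd28 and the brightest Cd44 probe set, all below at the brightest Bach2 probe set, and the genotypes overlap for S1pr1 and Klf2.

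Among the pan-T genes, Cd28 had the largest difference. At probe set 1437025_at Cd28 stood at 7.16, 6.97 and 7.21 in AKR F1 and at 6.29, 6.45 and 6.62 in DBA F1. The groups did not overlap, and Cd28 was 1.58-fold higher in AKR F1 (log2 difference 0.66 ± 0.11, SE, limma adjusted p = 0.0145). At its brighter probe set 1417597_at Cd28 stood at 8.05, 8.14 and 8.31 against 7.26, 7.79 and 7.80. Here replicate 1 of DBA F1 was the lowest array, the groups again did not overlap, and the difference of 0.55 ± 0.15 (SE) narrowly missed the threshold (limma adjusted p = 0.0548). The ratio between the Cd28 probe sets did not pass a test between the genotypes (difference -0.11, 95% interval -0.40 to 0.18). Cd28 at 1437025_at kept its call without replicate 3 of DBA F1 (0.74, limma adjusted p = 0.0230) and lost it without replicate 1 or 3 of AKR F1 or replicate 2 of DBA F1 (limma adjusted p = 0.0566, 0.0546 and 0.0535).

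Cd2 stood at 9.77, 9.91 and 9.88 in AKR F1 and at 9.50, 9.44 and 9.39 in DBA F1. The arrays within a genotype lay close together (SD 0.07 and 0.06, n = 3 each), and Cd2 was 1.33-fold higher in AKR F1 (0.41 ± 0.08, SE, limma adjusted p = 0.0232). Thy1 stood at 8.09, 7.91 and 7.88 against 7.63, 7.50 and 7.61, again with no overlap. Thy1 was 1.30-fold higher in AKR F1 (0.38 ± 0.09, SE, limma adjusted p = 0.0367). Without replicate 3 of DBA F1 the differences were 0.38 for Cd2 and 0.39 for Thy1, with limma adjusted p = 0.0744 and 0.0855. Each kept its call in 1 of the 6 fits that leave out an array, that without replicate 1 of DBA F1.

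Lef1 was the naive-state gene with the largest positive difference. At probe set 1421299_a_at, a set whose suffix marks probes shared by several transcripts of 1 gene, Lef1 stood at 6.85, 7.06 and 7.21 in AKR F1 and at 6.21, 6.58 and 6.41 in DBA F1. The groups did not overlap, and Lef1 was 1.56-fold higher in AKR F1 (0.64 ± 0.13, SE, limma adjusted p = 0.0222). At its brighter probe set 1454734_at Lef1 stood at 8.50, 8.33 and 8.76 against 8.04, 8.15 and 8.14. This difference of 0.42 ± 0.12 (SE) narrowly missed the threshold (limma adjusted p = 0.0538), with no overlap between the genotypes. The ratio between the Lef1 probe sets did not pass a test between the genotypes (difference -0.22, 95% interval -0.51 to 0.07). Without replicate 3 of DBA F1 the differences were 0.65 and 0.43 (limma adjusted p = 0.0628 and 0.113). Without replicate 2 or 3 of AKR F1 the call at 1421299_a_at was also lost (limma adjusted p = 0.0640 and 0.0688).

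S1pr1 and Klf2 did not pass, and their genotypes overlapped. S1pr1 stood at 9.22, 8.97 and 8.81 in AKR F1 and at 9.04, 8.49 and 8.41 in DBA F1 (difference 0.35 ± 0.18, SE, 95% interval -0.05 to 0.75, limma adjusted p = 0.216). Klf2, the brightest naive-state gene, stood at 10.53, 10.19 and 10.22 against 10.32, 9.98 and 10.04 (difference 0.20 ± 0.13, SE, 95% interval -0.09 to 0.50, limma adjusted p = 0.321). In each genotype the array numbered 1 was the highest for both genes. The same arrays had the highest mean of the B cell markers, 10.81 in AKR F1 and 10.67 in DBA F1, and the part of B cells in these values was not tested. Without replicate 1 of DBA F1 the S1pr1 difference was 0.55 and passed (limma adjusted p = 0.0378), and without replicate 3 of that genotype it was 0.23. Klf2 passed in none of the 6 fits that leave out an array.

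Bach2 differed between its probe sets. At 1437667_a_at, the brightest, Bach2 stood at 8.67, 8.79 and 9.08 in AKR F1 and at 9.41, 9.38 and 9.28 in DBA F1. All arrays of DBA F1 were above those of AKR F1, a 1.42-fold higher value in DBA F1 (difference -0.51 ± 0.11, SE, limma adjusted p = 0.0329). At 1436515_at, of similar brightness, Bach2 stood at 8.95, 8.98 and 9.08 against 8.99, 8.81 and 8.77 and did not pass (0.15 ± 0.09, SE, limma adjusted p = 0.308). The dimmer 1445460_at ranged from 5.65 to 5.88 over all arrays (difference 0.08, limma adjusted p = 0.547). The ratio of the brightest probe set to 1436515_at differed between the genotypes by -0.65 ± 0.11 (SE, limma adjusted p = 0.0131), and its ratio to 1445460_at by -0.59 ± 0.12 (SE, limma adjusted p = 0.0271). These ratios were tested over 16752 probe set pairs of the same gene, of which 7.01% passed, and the test was added after the values were seen. Without replicate 3 of DBA F1 the ratio to 1436515_at differed by -0.65 (limma adjusted p = 0.0435) and the ratio to 1445460_at by -0.64 (limma adjusted p = 0.0549). The first ratio lost its call without replicate 1 of AKR F1 (limma adjusted p = 0.0537). The second lost it without any of 5 arrays and kept it without replicate 3 of AKR F1 (limma adjusted p = 0.0348). At 1437667_a_at itself the call was kept without replicate 3 of AKR F1 only. Without replicate 3 of DBA F1 that difference was -0.55 (limma adjusted p = 0.0695).

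Cd44 was higher in AKR F1 at its brightest probe set and not at the others. At 1423760_at Cd44 stood at 10.41, 10.35 and 10.51 in AKR F1 and at 9.94, 10.10 and 10.10 in DBA F1, with no overlap. This was a 1.29-fold higher value in AKR F1 (0.37 ± 0.09, SE, limma adjusted p = 0.0370), lost when any 1 array was left out (limma adjusted p = 0.0795 without replicate 3 of DBA F1). At 1434376_at Cd44 stood at 9.82, 9.47 and 9.68 against 9.69, 9.69 and 9.76 (difference -0.05, 95% interval -0.29 to 0.18). At 1452483_a_at it stood at 8.82, 8.85 and 8.96 against 8.65, 8.91 and 8.89 (0.06, 95% interval -0.16 to 0.28), and in both cases the genotypes overlapped. The remaining probe set 1443265_at lay at 2.45 to 2.61 in all arrays, near the lowest values of the array. The test of the ratio did not show that the Cd44 probe sets differ: the brightest against 1434376_at changed by 0.42 ± 0.11 (SE, limma adjusted p = 0.0554) and against 1452483_a_at by 0.31 ± 0.09 (SE, limma adjusted p = 0.0824). Those ratios did not overlap between the genotypes. Of all single probe sets, 17.7% lay wholly above and 18.3% wholly below in AKR F1, and no such share is given for ratios.

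**Figure D2:**
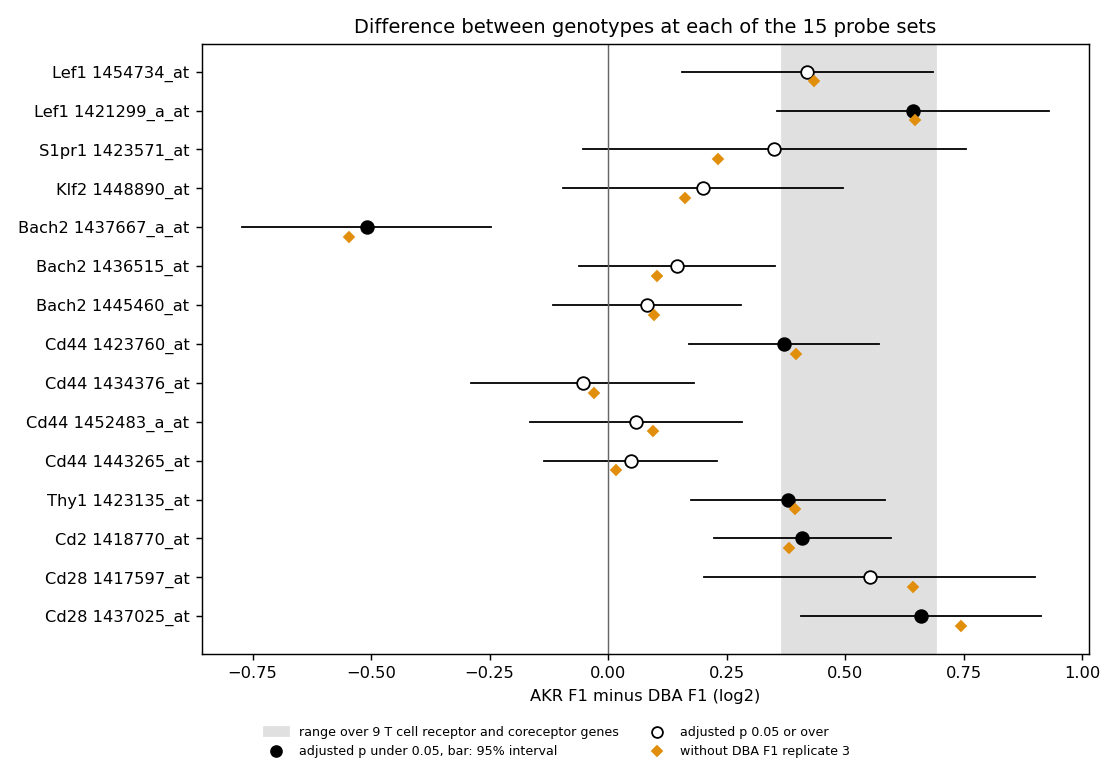
Difference between genotypes (AKR F1 minus DBA F1, log2) at each of the 15 probe sets, with its 95% interval from limma; filled circles passed an adjusted p of 0.05, diamonds are estimates without replicate 3 of DBA F1, and the grey band is the range over 9 T cell receptor and coreceptor genes, 0.37 to 0.69. Lef1, Thy1, Cd2, Cd28 and the brightest Cd44 probe set lie in the band, and the brightest Bach2 probe set lies at -0.51.

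The sequence before annotated starts of Lef1, Bach2 and Cd44, each with a called probe set, is shown as background. No link between these starts and the probe set values was tested. RefSeq promoters of build GRCm38.p6 were found for 5 of the 9 genes, in 9 windows. Each window printed runs from 250 to 11 bases before the start, 5′ to 3′ on the gene's strand. Capitals mark CTTTGA, the core recognised by Tcf7 and Lef1, and CACCC, the core recognised by Krüppel-like factors, on either strand (TCAAAG and GGGTG on the other). The motifs do not overlap in these windows. Lef1 is shown at its first start (chr3:131110047-131110286, plus strand) and at a start far inside the gene (chr3:131156044-131156283, plus strand). Bach2 is shown at chr4:32417185-32417424 (plus strand) and Cd44 at chr2:102901676-102901915 (minus strand).
Lef1, first start: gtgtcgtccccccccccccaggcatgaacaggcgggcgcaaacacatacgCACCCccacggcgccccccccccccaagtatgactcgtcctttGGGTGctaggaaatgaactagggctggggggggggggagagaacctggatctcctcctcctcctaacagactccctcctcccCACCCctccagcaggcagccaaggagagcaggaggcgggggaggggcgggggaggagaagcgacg
Lef1, inner start: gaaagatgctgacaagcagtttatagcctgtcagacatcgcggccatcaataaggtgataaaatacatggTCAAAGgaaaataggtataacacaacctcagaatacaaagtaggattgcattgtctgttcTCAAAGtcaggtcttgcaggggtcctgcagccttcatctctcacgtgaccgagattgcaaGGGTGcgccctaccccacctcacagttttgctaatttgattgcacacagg
Bach2: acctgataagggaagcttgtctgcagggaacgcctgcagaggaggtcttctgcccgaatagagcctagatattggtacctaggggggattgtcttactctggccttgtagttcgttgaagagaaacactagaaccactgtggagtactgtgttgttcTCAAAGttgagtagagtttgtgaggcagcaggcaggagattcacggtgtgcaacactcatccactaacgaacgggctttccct
Cd44: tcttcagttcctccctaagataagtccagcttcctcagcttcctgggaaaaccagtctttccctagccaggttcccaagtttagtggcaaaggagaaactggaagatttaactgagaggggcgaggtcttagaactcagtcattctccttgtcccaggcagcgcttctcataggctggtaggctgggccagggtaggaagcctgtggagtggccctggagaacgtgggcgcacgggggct
The window at the first Lef1 start held 3 CACCC and 0 CTTTGA matches, whereas the window at the inner start held 2 CTTTGA matches and 1 CACCC match. The Lef1 windows not printed held 0 CTTTGA matches, and 3 and 2 CACCC matches. The Bach2 window held 1 CTTTGA match, and the Cd44 window held neither motif. Of all 32851 windows of 240 bases, 13.5% held CTTTGA and 50.6% held CACCC, so that single matches are common. Binding was not measured, and which start the spleen uses was not tested.

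By class, each gene at its brightest probe set, the naive-state mean differed less between the genotypes than the pan-T mean and Cd44 did. For each array the value of each gene's brightest probe set was set against its mean over the 6 arrays and averaged within a class. This is a description with no test. The naive-state mean (Lef1, S1pr1, Klf2 and Bach2) was 0.12, -0.05 and 0.10 in AKR F1 and 0.09, -0.12 and -0.15 in DBA F1. These overlapped, with replicate 1 of DBA F1 among AKR F1 arrays. The pan-T mean was 0.20, 0.22 and 0.25 against -0.31, -0.19 and -0.17, and Cd44 was 0.17, 0.11 and 0.27 against -0.29, -0.13 and -0.13, both without overlap. The naive-state mean minus the pan-T mean differed by -0.33 between the genotypes, and by -0.22 to -0.40 when any 1 array was left out. The lowest size, -0.22, was without replicate 1 of DBA F1. Most of this came from Bach2, and with Lef1, S1pr1 and Klf2 alone the value was -0.12. The naive-state mean itself differed by 0.12, and by 0.32 without Bach2, whose brightest probe set had the opposite sign. Against Cd44 the naive-state mean differed by -0.26, and by -0.13 without replicate 1 of DBA F1. When all probe sets of a gene were averaged instead of the brightest, the difference against Cd44 turned to 0.14. That against the pan-T mean was then -0.22.

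**Figure D3:**
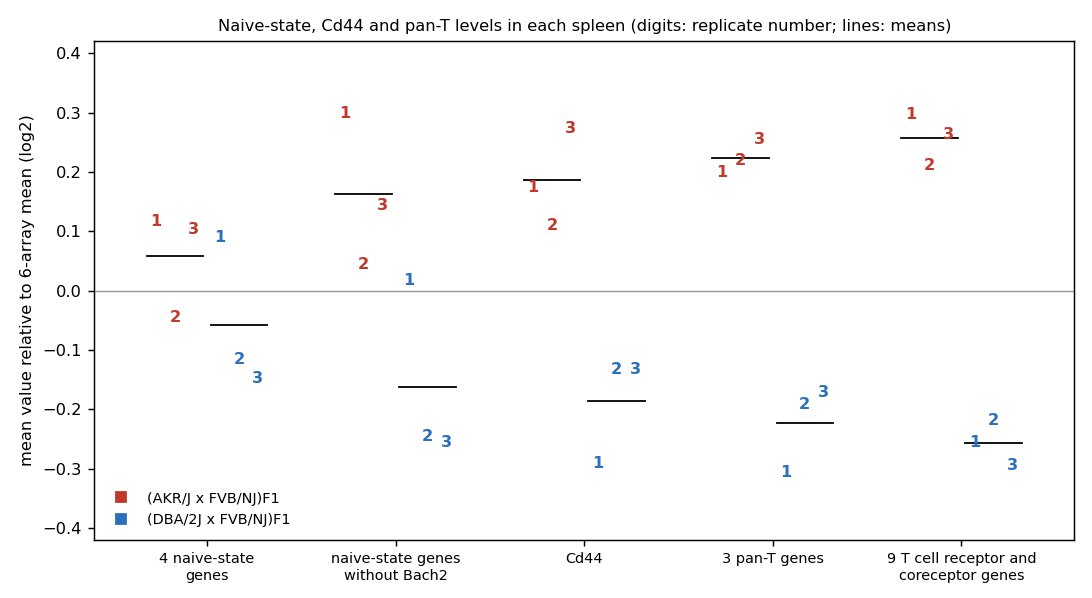
Mean log2 value of each class relative to its 6-array mean, per spleen; digits are replicate numbers, lines are means of 3 arrays. The pan-T genes, Cd44 at its brightest probe set and the T cell receptor genes separate the genotypes, whereas the mean of the 4 naive-state genes overlaps, with DBA F1 replicate 1 at 0.09.

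Other genes of T cells are set beside these differences, and the part of T cell number in them was not tested. All 9 genes of the T cell receptor complex and coreceptors were higher in AKR F1 (median difference 0.48), where 6.29% of 18193 genes, each by its brightest probe set, were higher and 6.17% lower and the median gene differed by -0.01. The list mean was 8.46 to 8.55 in AKR F1 and 7.95 to 8.03 in DBA F1. Cd8a and Cd8b1, the chains of the cytotoxic T cell coreceptor, and Cd5, an inhibitory receptor of T cells, differed by 0.59, 0.59 and 0.69 (limma adjusted p = 0.00523, 0.00823 and 0.00861). Cd3g, a signalling chain of the receptor, differed by 0.58. Of the 9, 5, 5 and 5 were higher without replicates 1, 2 and 3 of AKR F1, and 9, 7 and 5 without those of DBA F1. With each array centred on the mean of these 9 genes, which brought the median difference of all probe sets to -0.53, 84.3% of all probe sets were lower in AKR F1 and 0 of the 15 were higher. On that scale Lef1 (-0.09 and 0.13), Cd28 (0.04 and 0.15), Cd2 (-0.10), Thy1 (-0.13), S1pr1 (-0.16) and the brightest Cd44 probe set (-0.14) did not pass. Klf2 passed as lower (-0.31, limma adjusted p = 0.0401), as did all 3 Bach2 probe sets (-1.02, -0.37 and -0.43) and the other 3 Cd44 probe sets (-0.57, -0.45 and -0.47). These 7 of 15 are fewer than the share of all probe sets.

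Of 7 measured genes of signalling below the T cell receptor, 3 were higher in AKR F1 and 0 lower (median 0.30). Trat1, a transmembrane adaptor, differed by 0.53 (limma adjusted p = 0.0239), the protein kinase C isoform gene Prkcq by 0.35 (0.0345) and the adaptor Fyb by 0.34 (0.0381). Without replicates 1, 2 and 3 of AKR F1 0, 1 and 0 passed, and without those of DBA F1 3, 1 and 0.

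Among 12 further genes of the naive state and quiescence, 4 were higher, 0 lower and 8 did not pass (median 0.24, all 12 differences positive). Dapl1, a gene abundant in naive T cells, stood at 7.89 ± 0.10 in AKR F1 and 7.25 ± 0.10 in DBA F1 (SD, n = 3 each), a difference of 0.63 (limma adjusted p = 0.00850). The survival factor Bcl2 differed by 0.79 (0.0313), the chromatin organiser Satb1 by 0.36 (0.0446) and the actin crosslinker Actn1 by 0.32 (0.0466). The homing receptor Ccr7 (0.22) and the interleukin-7 receptor chain Il7r (0.23), named after their values were seen, did not pass. With 1 array left out the number higher was 1 in 4 fits, 3 without replicate 1 of DBA F1 and 2 without replicate 2 of DBA F1. Dapl1 passed without replicate 3 of DBA F1 (0.68, limma adjusted p = 0.0209).

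Of 16 genes of memory and effector T cells, 2 were higher, 0 lower and 14 did not pass (median 0.23). The galactose-binding lectin Lgals1 differed by 0.41 (limma adjusted p = 0.0244) and Eomes, a T-box factor of memory and NK cells, by 0.51 (0.0379). Without replicate 1 of DBA F1 4 passed, and in each of the other 5 fits with an array left out 0 passed. The median differences of the naive-state list (0.24) and the memory list (0.23) were close together, both above that of all genes and below that of the T cell receptor list, and no test of their difference was made. Of 5 NK cell markers 2 were higher, Klrd1 (0.97) and Nkg7 (0.70), and 3 did not pass, Prf1 (0.43), Gzma (0.01) and Ncr1 (-0.02). The NK list means were 8.10 to 8.32 against 7.66 to 7.91, and their part in the result was not tested.

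Among 11 partners and relatives of Tcf7 and Lef1, 2 were higher and 0 lower (median 0.20). Tox, an HMG box factor of T cell development, differed by 0.69 (limma adjusted p = 0.00823) and the Groucho corepressor Tle4 by 0.30 (0.0434). With any 1 array left out, 1 of the 11 passed. Of 17 ligands and partners of the set's receptors, 1 was higher and 0 lower (median 0.17), a share near the 6.29% of all genes that were higher. The 1 gene was Spns2, the exporter of sphingosine 1-phosphate (0.37, limma adjusted p = 0.0445). Without replicate 1 of DBA F1 2 passed, and in each of the other 5 such fits 0 passed. Sphk1, which makes sphingosine 1-phosphate, had the most negative value (-1.09, limma adjusted p = 0.0511), and Cd48, Cd80 and Cd86 had 0.33, 0.11 and 0.20, without passing. These 4 were named after their values were seen.

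**Figure D4:**
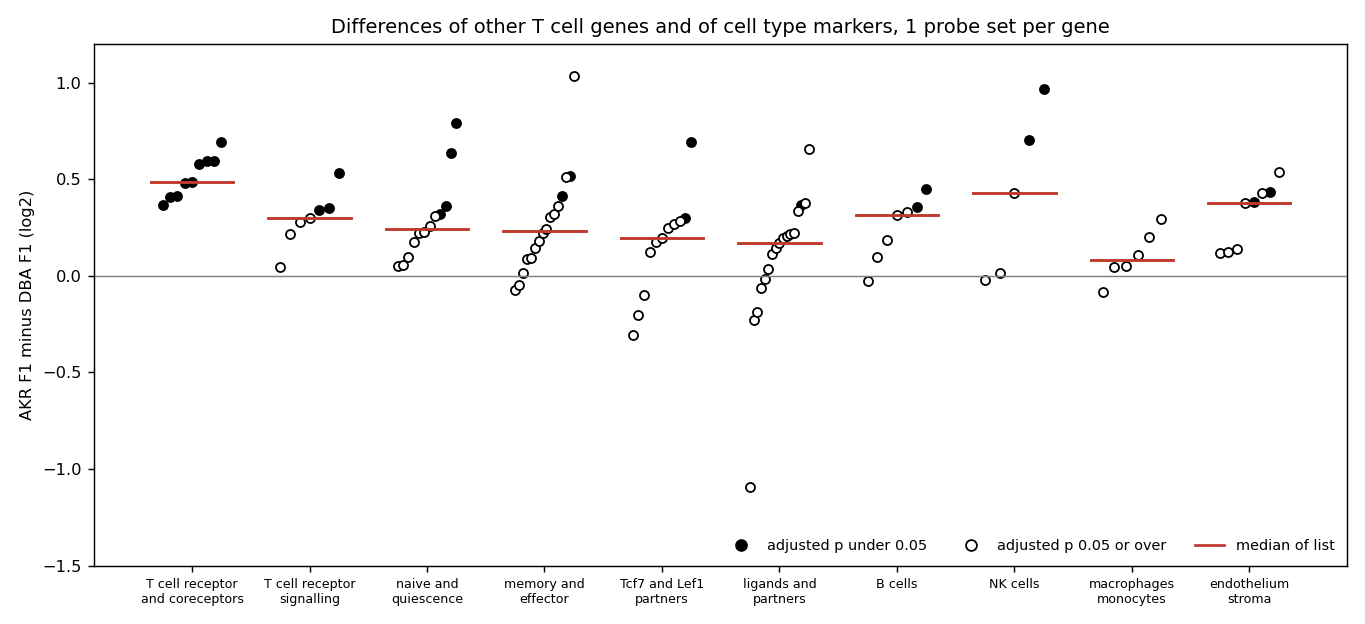
Difference between genotypes (AKR F1 minus DBA F1, log2) for genes of 10 lists, 1 point per gene at its brightest probe set; filled points passed an adjusted p of 0.05 and red lines are list medians. All 9 T cell receptor and coreceptor genes are filled, against 4 of 12 naive and quiescence genes and 2 of 16 memory and effector genes.

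Markers of the other cells of the spleen were measured on the same arrays. Of 7 B cell markers 2 were higher in AKR F1, Cr2, a complement receptor (0.45, limma adjusted p = 0.0234), and Cd79a, a chain of the B cell receptor (0.36, 0.0395). The other 5 did not pass: Ms4a1 (0.33), Fcer2a (0.32), Cd79b (0.19), Pax5 (0.10) and Blk (-0.03). Of 8 markers of endothelium and stroma 2 were higher, Tek (0.43) and Kdr (0.38), both endothelial receptors. The other 6 did not pass: Pdgfrb (0.54), Col1a1 (0.43), Col3a1 (0.37), Madcam1 (0.14), Cdh5 (0.13) and Pecam1 (0.12). Over all 18193 genes, 6.29% were higher and 6.17% lower. Of 6 macrophage and monocyte markers and 6 neutrophil markers 0 passed in limma in either direction, with 2 and 0 at an unadjusted p under 0.05. The median difference was 0.32 for B cell, 0.43 for NK cell and 0.38 for endothelium and stroma markers. These lie above the medians of the naive and quiescence list (0.24) and the memory list (0.23). For macrophage and monocyte markers the median was 0.08, and for neutrophil markers -0.33. The erythroid and cell cycle lists were lower in AKR F1 at 5 of 5 and 6 of 6 genes, as in Rhag (-2.34) and Mki67 (-1.60). Without replicate 3 of DBA F1, 4 and 3 of these passed as lower, and 0 B cell, 2 NK cell and 1 endothelium and stroma markers as higher. In that fit 1.44% of all probe sets were higher and 1.34% lower. The medians were then 0.25 for B cell, 0.39 for NK cell, 0.31 for endothelium and stroma, 0.10 for macrophage and monocyte and -0.79 for neutrophil markers. Those of the naive and memory lists were 0.28 and 0.23.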

How the data were processed

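RNA of 6 spleens of F1 females was measured on Affymetrix arrays, with groups and replicate numbers taken from the sample titles. The deposited values are log2 probe set summaries that the authors had brought to a common scale; RMA and MAS5 are named, without a role, per the submitters' processing notes, and the method behind these values is not given in the sources used. There are no counts, and precision is limited by the number of arrays. The titles number the spleens and do not say that they came from separate animals, so p-values measure the spread between these samples, which may be technical. Strain differences in sequence under the probes were not tested.

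Of 45101 probe sets, 64 controls were left out. Of the 45037 tested, 34945 had 1 symbol, 932 several and 9160 none listed here, and the 8 genes described here matched RefSeq by gene identifier. Genotypes were compared with limma 3.58.1 (lmFit, eBayes) in R 4.3.3 over all 6 arrays, with Benjamini-Hochberg adjustment over all probe sets and a threshold of 0.05. The procedure was tested on simulated data. Lists used each gene's probe set with the highest mean. Named genes were all members, and of each other list up to 4 genes past the threshold with the smallest p. Of the B cell, NK cell and endothelium and stroma lists, the markers that did not pass were named too. The members and lists were chosen with earlier results of these data known. Ratios between probe sets of a gene were fitted the same way, a test added after the values were seen. Alternatives were median centring, quantile normalization, centring on T cell receptor genes, array weights, a robust variance model with a trend, a filter on dim probe sets (under the 40th percentile), a replicate block and leaving out each array.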

Additional observations from a re-analysis of the deposited data

How the results depend on the processing

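Each of the 15 probe sets kept its direction wherever it passed, except with arrays centred on the T cell receptor genes, where the values that changed sign were Lef1 -0.09 (1454734_at), S1pr1 -0.16, Klf2 -0.31, Bach2 -0.37 and -0.43, Cd44 -0.14, -0.45 and -0.47, Thy1 -0.13 and Cd2 -0.10. By construction that scale subtracts the difference of those genes. There 0 of the 15 probe sets were higher and 7 lower, where 0.64% of all probe sets were higher and 84.3% lower. In each of the 6 T cell lists 0 genes were higher. Of all called probe sets, 49.4% were higher in AKR F1 as deposited, 61.9% after median centring and 0.75% after centring on the T cell receptor genes. Among the 15, 7 were higher after median centring and 4 after quantile normalization, where Thy1 did not pass (limma adjusted p = 0.0919). With the trended and robust variance model 7 were higher, and 6 with array weights or without dim probe sets. The share of all tested probe sets higher in these 5 fits was 6.77%, 3.19%, 6.19%, 7.30% and 9.52%, in that order. Median centring gave 4 memory and effector genes.

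With 1 array left out, 0 to 5 of the 15 were higher and 0 to 1 lower. The counts higher were 5 to 9 for T cell receptor genes, 0 to 3 for signalling genes, 1 to 3 for naive genes, 0 to 4 for memory genes, 0 to 2 for ligands and 1 to 1 for Tcf7 and Lef1 partners. The naive-state mean differed by -0.40 to -0.22 from the pan-T mean, and by -0.33 to -0.13 from Cd44. With all probe sets of a gene averaged, the former was -0.22 and the latter 0.14.

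Whether replicate numbers pair the samples was not settled. Deviations of same-numbered arrays correlated at 0.20, 0.11 and 0.05 across probe sets, for each AKR F1 array its highest value. Replicate 3 of DBA F1 correlated slightly better with replicate 2 of AKR F1 (0.06). With the replicate block 6 of the 15 were higher, Cd28 at 1417597_at added (limma adjusted p = 0.0298), and 1 was lower. Of all probe sets 5.46% were higher and 4.88% lower in that fit. There 2 naive genes and 1 partner gene were higher. S1pr1 had a limma adjusted p of 0.0618 with the block and 0.216 without it. All 6 calls of the 15 made without the block were kept. For the ratio tests, 1 Cd44 ratio passed with quantile normalization (adjusted p = 0.0467), the trended model (0.0480) and the block (0.0472).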
